A study of Mus musculus with 10 samples.

Results

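Transcripts of 5 steroid hormone receptors were followed in the gastrocnemius of 10 male mice: Esr1 and Esr2, the nuclear oestrogen receptors; Nr3c1, the glucocorticoid receptor; Nr3c2, the mineralocorticoid receptor; and Gper1, a membrane receptor activated by oestrogens. These are 5 of the 49315 genes in the count table, and 4 of them, all but Esr2, had enough counts to be among the 14714 genes tested. Esr1 was chosen by its difference in counts between the genotypes in these same libraries, and the other receptors were chosen as its relatives in hormone signalling. The levels and differences of the 5 receptors are therefore given as a description, with no p-value.

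The study asked what chronic activity of the aryl hydrocarbon receptor (AHR), a receptor for compounds of tobacco smoke, does in skeletal muscle. All 10 mice were on the C57BL6J background, carried floxed alleles of Ahr and breathed cigarette smoke for 16 weeks, on 5 days per week in 2 sessions of 1 h per day, at 220 ± 80 mg/m3. The 5 AHRmko mice (animals 8, 9, 19, 22 and 34) also carried the HSA-MCM transgene, and deletion of Ahr in myofibres was started in them with tamoxifen, given 4 weeks before the smoke by the sample labels, although the main text of the study gives another interval. The 5 AHRfl mice (animals 11, 12, 13, 15 and 33) were littermates without Cre, and whether they received tamoxifen was not stated outright. Muscle was taken 72 h after the last exposure by the series' design text, and within a range that ends at 72 h by the main text of the study. No air-exposed mouse was among these libraries, and the age of the mice in weeks was not given in the sources used here.

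The transgene matters for what an Esr1 count can mean. HSA-MCM encodes MerCreMer, a Cre recombinase with a mutated hormone-binding domain of the mouse oestrogen receptor on each end, and it is driven by the human ACTA1 promoter, which is active in skeletal myofibres. The deposited table holds 1 number per gene and mouse, so reads from the endogenous Esr1 gene and reads from the receptor parts of MerCreMer cannot be told apart in it. AHRfl mice have no such transgene, and each comparison of the genotypes below is also a comparison of mice with and without it.

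Steroid receptors of the nuclear receptor family are held in the cytoplasm or nucleus by chaperones built around HSP90, and on binding a hormone they attach to DNA response elements and recruit coactivators. In skeletal muscle, glucocorticoid signalling through Nr3c1 is known for raising the ubiquitin ligases of muscle wasting and for the daily control of fuel use, and oestrogen signalling through Esr1 is known for effects on mitochondria and regeneration. Gper1 is a G protein-coupled receptor, unrelated in sequence to the nuclear receptors, that signals through cyclic AMP and the EGF receptor.

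The receptor genes lie on separate chromosomes of the mouse GRCm38 genome. Esr1 (ENSMUSG00000019768) occupies chr10:4611593-5005614 on the plus strand. Its exons cover 13661 bases when all 10 annotated transcripts are joined, and the coding sequence of 1797 bases is 13.2% of that. Esr2 (ENSMUSG00000021055) lies at chr12:76120419-76177259 on the minus strand, and Nr3c2 (ENSMUSG00000031618) at chr8:76899442-77245012 on the plus strand. Gper1 (ENSMUSG00000053647) lies at chr5:139423151-139427800 on the plus strand, inside 3110082I17Rik of the opposite strand, with 0 shared exon bases. Nr3c1 (ENSMUSG00000024431) lies at chr18:39410545-39519421 on the minus strand. Nr3c2 shares 247 of its 6474 exon bases with Gm10649 on the opposite strand, which had between 0 and 7 counts per mouse, and reads on shared bases cannot be assigned where strand is not used.

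Since Esr1 and Esr2 are closely related, the coding sequences were searched for stretches in which a read could fit both. The longest identical run between them was 17 bases, which lies in the part coding for the DNA-binding domain, and the same length was the longest for Nr3c1 and Nr3c2. The other pairs shared at most 13 bases. The run is shown in capitals below, within 77 coding bases of each gene (coding positions 613 to 689 of Esr1 and 550 to 626 of Esr2, from the annotated transcripts, 5′ to 3′).

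Esr1: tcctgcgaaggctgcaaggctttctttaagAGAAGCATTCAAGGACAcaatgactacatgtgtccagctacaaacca
Esr2: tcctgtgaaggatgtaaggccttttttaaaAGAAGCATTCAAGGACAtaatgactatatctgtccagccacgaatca

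No stretch of 100 or of 150 bases of the 5 coding sequences occurred in an annotated transcript of another gene. At 50 bases this held for 4 of the 5, and stretches of the Nr3c1 coding sequence occurred in transcripts of 51 other genes. The reads were 150 bases long from each end. The end of the Esr1 coding sequence is shown next because it codes for the last part of the receptor, on the side of the hormone-binding domain that MerCreMer also carries. These are coding bases 1651 to 1800, with the stop codon in capitals.

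Esr1 end of coding sequence: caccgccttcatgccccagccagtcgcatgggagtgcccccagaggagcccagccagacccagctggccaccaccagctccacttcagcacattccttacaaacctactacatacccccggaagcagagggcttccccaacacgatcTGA

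Starts of the receptor genes were read from RefSeq (GRCm38.p6) as windows of 300 bases, from 250 bases before to 50 bases after a start, and 5 windows were found for 4 of the receptors, 2 of them for Esr1. Because the deleted protein is a DNA-binding receptor, the windows were searched on both strands for GCGTG, the core of the xenobiotic response element that AHR binds. It occurred in 2 of the 5 windows, against 32.4% of 32851 windows of all genes. The first window of Esr1 (chr10:4611739-4612038, plus strand) had no match, and the second (chr10:4709908-4710207, plus strand) had a match on the minus strand at bases 255 to 259, which begins 5 bases after the start and reads in capitals below. The window of Nr3c2 (chr8:76902080-76902379, plus strand) had a match on the plus strand at bases 38 to 42, whose first base lies at -213 from the start.

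Esr1 first start: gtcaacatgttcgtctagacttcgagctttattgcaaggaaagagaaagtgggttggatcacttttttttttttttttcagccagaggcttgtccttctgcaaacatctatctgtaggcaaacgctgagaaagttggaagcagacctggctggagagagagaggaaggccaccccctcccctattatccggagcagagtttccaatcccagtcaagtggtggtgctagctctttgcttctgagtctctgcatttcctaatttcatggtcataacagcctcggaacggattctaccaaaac
Esr1 second start: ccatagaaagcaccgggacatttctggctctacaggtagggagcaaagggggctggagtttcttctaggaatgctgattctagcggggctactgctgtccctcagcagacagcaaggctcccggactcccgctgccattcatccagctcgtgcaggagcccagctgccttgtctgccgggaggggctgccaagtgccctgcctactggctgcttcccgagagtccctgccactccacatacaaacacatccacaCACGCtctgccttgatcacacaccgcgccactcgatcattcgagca
Nr3c2 start: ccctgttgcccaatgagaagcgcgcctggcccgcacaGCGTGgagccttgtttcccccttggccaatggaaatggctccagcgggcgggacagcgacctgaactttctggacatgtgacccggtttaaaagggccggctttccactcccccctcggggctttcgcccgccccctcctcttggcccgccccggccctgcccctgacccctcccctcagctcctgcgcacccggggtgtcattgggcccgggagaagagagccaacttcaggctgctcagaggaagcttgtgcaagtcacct

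The 5 windows held no match on either strand to the palindromic oestrogen response element, GGTCA and TGACC with 3 bases between, which occurred in 0.07% of all windows. They held none to the glucocorticoid response element, GNACA and TGTNC with 3 bases between, which occurred in 0.475%. Such matches describe letters only. No binding was measured in this series.

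Each library held between 30393035 and 37954388 counts on genes, and 3 counts, the smallest number read here as a signal, corresponded to between 0.0788 and 0.0927 CPM, the counts of a gene scaled to the TMM-normalized size of its library, a limit that covers counting error only. The 10 myofibre markers that check the tissue, among them Acta1, Ckm and Ttn, summed to between 128655 and 174502 CPM, with 0 markers at 0 in all mice. Xist, an X-linked RNA of female cells, had between 44 and 75 counts in 5 libraries (AHRfl 11, 15 and 33, AHRmko 9 and 22) and between 0 and 3 in the other 5, although Y-linked Ddx3y had at least 1852 counts in every mouse. This split of the libraries crosses the genotypes, and each receptor is also given within it. Two-sided tests across genes compare AHRmko with AHRfl by edgeR's quasi-likelihood method on TMM-normalized counts, with Benjamini-Hochberg adjustment.

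The targeted gene, Ahr, was at 3.13, 2.05, 1.64, 1.95 and 1.33 CPM in AHRfl mice 11, 12, 13, 15 and 33. In AHRmko mice 8, 9, 19, 22 and 34 it was at 1.65, 2.17, 1.54, 1.63 and 0.927 CPM. The groups overlapped, and the log2 fold change of -0.35 (95% interval -0.90 to 0.20) did not pass the test (adjusted p = 0.844, exact permutation test p = 0.294). Fits that omitted 1 animal gave values between -0.48 and -0.13, nearest to 0 without AHRfl 11 (-0.13) and without AHRmko 34 (-0.21). The counts sum reads over the whole gene, of which only exon 2 is floxed, and the muscle also holds cells in which the ACTA1 promoter is silent, so this level does not check the deletion itself.

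Esr1 was the receptor that separated the genotypes. In AHRfl mice 11, 12, 13, 15 and 33 it had 603, 658, 590, 557 and 544 counts, or 17.1, 18.98, 16.6, 15.9 and 16.8 CPM. In AHRmko mice 8, 9, 19, 22 and 34 it had 10191, 24975, 11579, 10900 and 9770 counts, or 267.7, 677.6, 330.4, 286.6 and 292.1 CPM. The groups did not overlap, and the lowest AHRmko mouse stood 14.1 times above the highest AHRfl mouse. The means were 17.1 ± 1.14 CPM (SD, n = 5) in AHRfl and 370.9 ± 172.9 CPM (SD, n = 5) in AHRmko muscle, a ratio of 21.7. On the log2 scale AHRmko was higher by 4.44, with a standard error of 0.28 and a 95% interval from 3.81 to 5.07. Over all genes, edgeR called 1 of 14714 at an adjusted p under 0.05, 0.0068%, and this contrast is the one by which Esr1 was chosen. Groups that do not overlap were found for 1.4% of the genes tested, and for 0.686% with AHRmko higher.

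**Figure D1:**
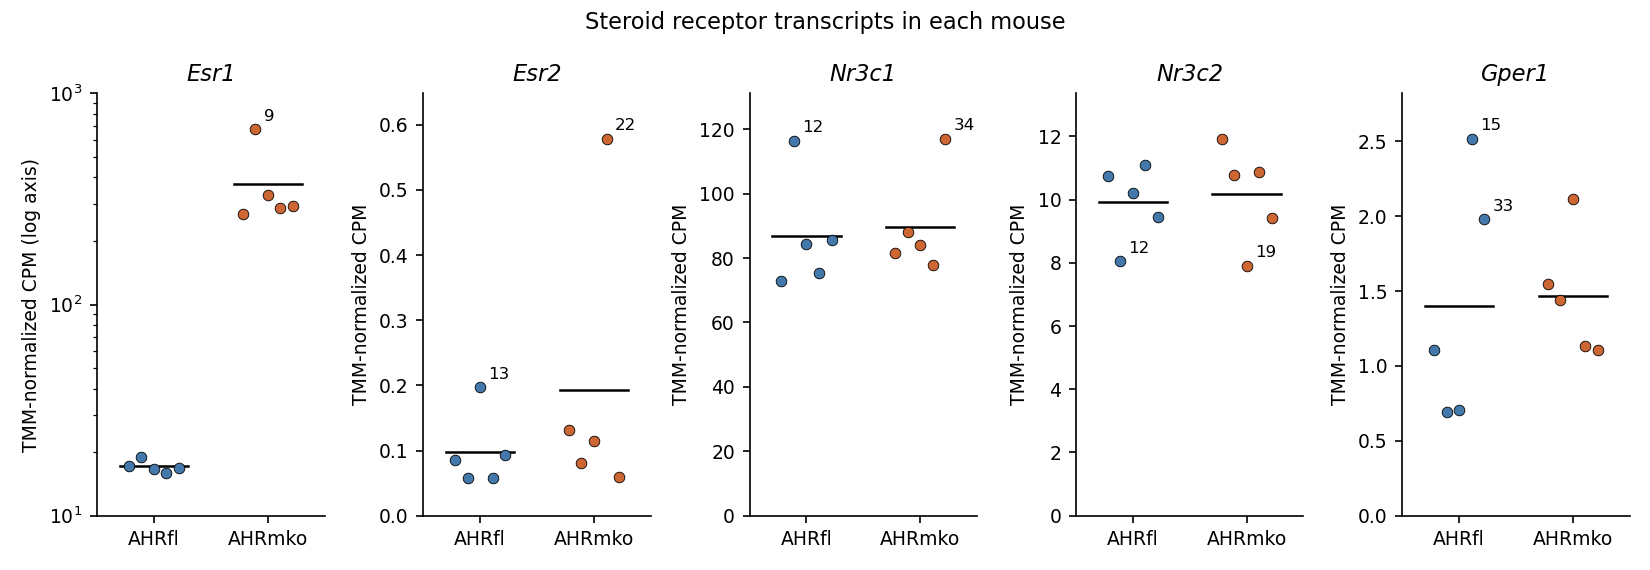
TMM-normalized CPM of the 5 receptor transcripts in each of the 10 mice, 1 panel per gene, with Esr1 on a log axis and the others on linear axes from 0. Points are mice, horizontal lines are group means and numbers name single animals. For Esr1 the AHRmko mice lie between 267.7 and 677.6 CPM and the AHRfl mice between 15.9 and 18.98 CPM, whereas the genotypes overlap for the other 4 receptors.

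Among the 14714 genes ordered by CPM per kilobase of exon, Esr1 ranked between 8300 and 8998 in AHRfl mice and between 688 and 1552 in AHRmko mice. Of the summed level of the 5 receptors per kilobase, Esr1 made up between 7.69% and 9.75% in AHRfl and between 55.5% and 78.3% in AHRmko mice. Rank and share in AHRmko mice rest on counts that may include reads of the transgene, to which this exon length does not apply. In whole muscle, a change in the number of cells that express a gene and a change in RNA per cell cannot be told apart, and this holds for every level given here.

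The level of Esr1 counts was not the same in all AHRmko mice. Mouse 9 stood at 39.6 times the AHRfl mean, and the other 4 mice at between 15.7 and 19.3 times. The other 4 had a mean of 294.2 ± 26.3 CPM (SD, n = 4), and mouse 9 was 2.3 times above it. In AHRfl muscle the SD of log2 CPM was 0.09, smaller than for most genes of like level (percentile 26.8 of 2146 genes), and in AHRmko muscle it was 0.55, larger than for most (percentile 97.5 of 237 genes). Without mouse 9 the log2 fold change was 4.11.

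Acta1 is the mouse skeletal actin gene, whose human counterpart lends its promoter to the transgene. Whether its level follows the activity of that promoter in the transgene was not tested. Acta1 was at 24245, 25532, 24421, 24768 and 21800 CPM in AHRfl mice 11, 12, 13, 15 and 33. In AHRmko mice 8, 9, 19, 22 and 34 it was at 26846, 23682, 25949, 28337 and 27513 CPM. The groups overlapped and did not differ past the threshold (log2 fold change 0.13, standard error 0.08, 95% interval -0.05 to 0.31, adjusted p = 0.815, exact permutation test p = 0.0635). Mouse 9, the highest for Esr1, was the lowest AHRmko mouse for Acta1, at 0.872 of the mean of the other 4. Per 1000 Acta1 counts, Esr1 had between 0.643 and 0.771 counts in AHRfl mice, between 9.97 and 12.7 in AHRmko mice 8, 19, 22 and 34, and 28.6 in mouse 9.

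**Figure D2:**
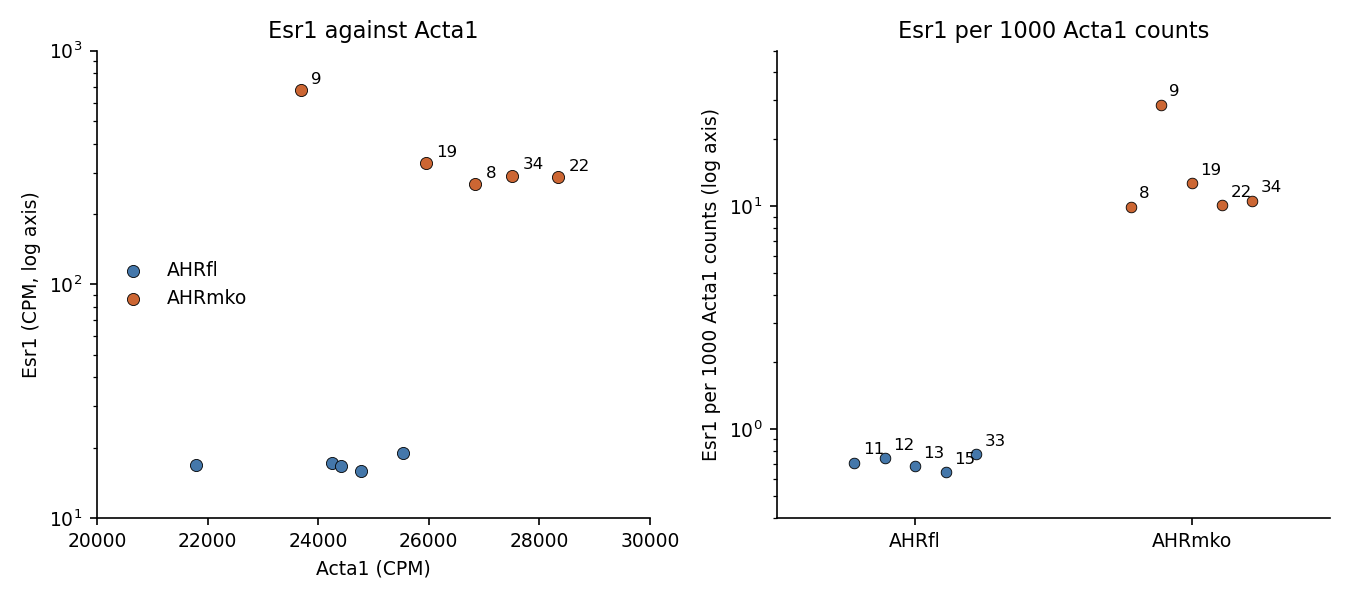
Left, Esr1 in CPM on a log axis against Acta1 in CPM, with AHRmko animals numbered. Right, Esr1 counts per 1000 Acta1 counts on a log axis for every mouse. AHRmko mouse 9 has the highest Esr1 (677.6 CPM) and the lowest Acta1 (23682 CPM) of its genotype.

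Other cell types of the tissue were compared with Esr1 through their marker genes. Myofibre markers summed to 152272 CPM in mouse 9 and to between 145037 and 171516 CPM in the other AHRmko mice, so that mouse lay within their range. The macrophage markers (5 genes, Adgre1 and Cd68 among them) were lowest in mouse 9, where they summed to 10.1 CPM against between 17.4 and 28.1 CPM, with all 5 genes at the lowest level of the genotype. The adipocyte markers (4 genes, Adipoq and Plin1 among them) were highest in mouse 9, with 17.1 CPM against between 2.39 and 12.4 CPM. None of the 8 marker lists had a gene called by edgeR, DESeq2 or limma-voom, and none had a gene at an unadjusted p under 0.05, against 0.0068% of all genes called by edgeR and 6.61% at that unadjusted p. The part of these differences in the level of Esr1 was not tested. Within the Xist split, Esr1 did not overlap between the genotypes on either side. It was at most 17.1 CPM in AHRfl and at least 286.6 CPM in AHRmko mice with Xist counts, and at most 18.98 and at least 267.7 CPM in those without. Groups that do not overlap, with AHRmko higher, were found for 11.9% of all genes in the libraries with Xist counts and for 10% in those without, and Esr1 was chosen by this contrast.

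Genes next to Esr1 on chromosome 10 were also described, taken by position alone. What their levels mean for the source of the Esr1 counts was not tested. Of 29 annotated genes within 1 Mb, 12 had enough counts to be tested. None was called by edgeR, DESeq2 or limma-voom. At an unadjusted p under 0.05 there were 0, against 6.61% of all genes, a share at which 12 genes can well hold 0. Their log2 fold changes ran from -0.16 to 0.44 with a median of 0.01. The nearest tested gene before Esr1, Armt1, an acidic residue methyltransferase 156452 bases away, was at 20.5 ± 0.928 CPM (SD, n = 5) in AHRfl and 22.1 ± 1.54 CPM (SD, n = 5) in AHRmko muscle (log2 fold change 0.11, edgeR adjusted p = 0.815). The nearest after it, Syne1, which encodes the nuclear envelope protein nesprin-1, begins or ends 15303 bases away and was at 60.5 ± 8.11 and 57.9 ± 11.3 CPM (SD, n = 5), with a log2 fold change of -0.06 (edgeR adjusted p = 0.96) that turned positive when mouse 19 or mouse 22 was left out. Ccdc170, nearer than Armt1 on that side, had between 4 and 23 counts and was not tested.

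**Figure D3:**
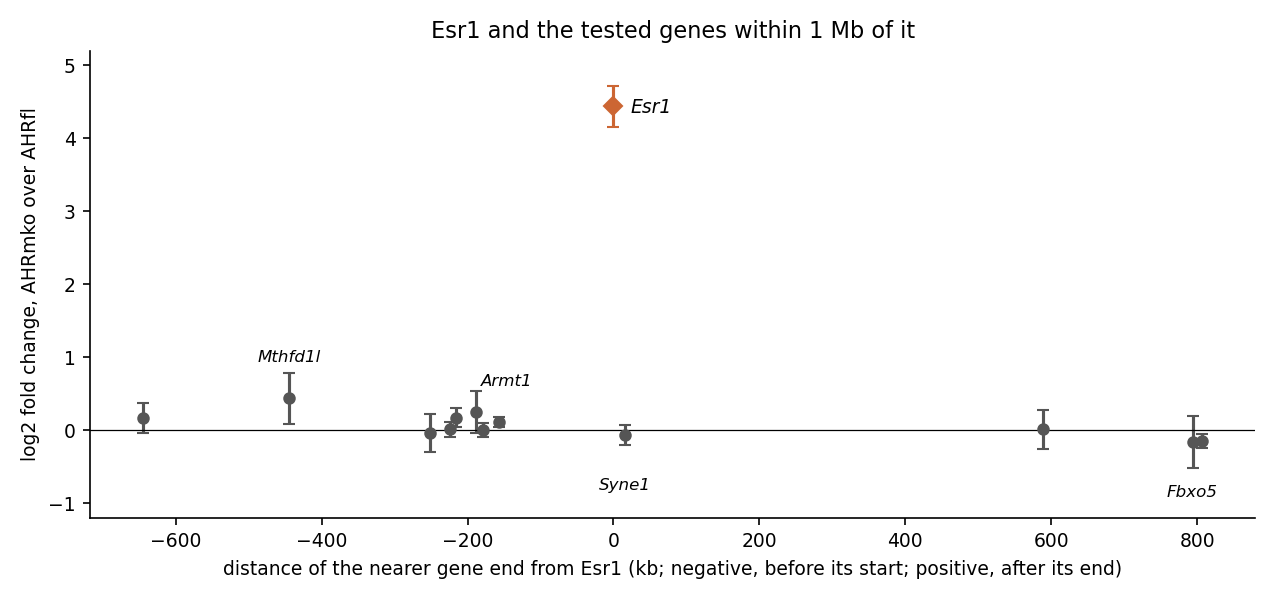
Log2 fold change of AHRmko over AHRfl for Esr1 (diamond) and the 12 tested genes within 1 Mb of it (circles) against distance in kilobases, with bars of 1 standard error. The 12 neighbours lie between -0.16 and 0.44, and Esr1 lies at 4.44.

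Esr2, the second nuclear oestrogen receptor, was barely detected. It had 3, 2, 7, 2 and 3 counts in AHRfl mice 11, 12, 13, 15 and 33, and 5, 3, 4, 22 and 2 counts in AHRmko mice 8, 9, 19, 22 and 34. Of the 53 counts in all, 41.5% came from AHRmko mouse 22, and 6 of the 10 mice were at or under 3 counts. Left in a fit without a filter, it differed by 0.96 on the log2 scale, with a 95% interval from -0.30 to 2.23, and without mouse 22 the other 4 AHRmko mice held 14 counts and the 5 AHRfl mice 17. Within the Xist split its difference of mean log2 CPM was 1.14 in libraries with Xist counts, among them mouse 22, and -0.14 in those without. The interval of the fit without a filter covered both directions, so no difference in Esr2 was resolved at these counts.

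Nr3c1, the glucocorticoid receptor, was at 72.9, 116.4, 84.3, 75.3 and 85.6 CPM in AHRfl mice 11, 12, 13, 15 and 33. In AHRmko mice 8, 9, 19, 22 and 34 it was at 81.4, 88.1, 84.1, 77.7 and 117.1 CPM. The genotypes overlapped, with 1 high mouse in each, AHRfl 12 and AHRmko 34, and the other 8 mice between 72.9 and 88.1 CPM. The difference came to 0.05 on the log2 scale, with a standard error of 0.14 and a 95% interval from -0.26 to 0.35. Without AHRfl 12 it was 0.17, without AHRmko 34 it was -0.07, and with both left out the difference of mean log2 CPM was 0.06. Within the Xist split the difference was 0.09 in libraries with Xist counts and -0.09 in those without.

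The 2 mice with high Nr3c1 also stood apart in other readouts of the tissue. Their myofibre markers had the highest sums of their genotypes (174502 CPM in AHRfl 12 and 171516 CPM in AHRmko 34) and their endothelial markers the lowest (178 and 187 CPM, against up to 259.6 and 332.9 CPM in the other mice of each genotype). Single myofibre markers did not all follow the sum, with 5 of 10 at the highest and 4 at the lowest AHRfl level in mouse 12, and 4 at the highest and 2 at the lowest AHRmko level in mouse 34. All 7 endothelial markers were lowest in AHRfl 12, and 5 of 7 in AHRmko 34. Satellite cell markers also had the highest sums of their genotypes (84.4 and 63.8 CPM), but these sums were mostly Sdc4. That gene averaged 52.9 CPM in AHRfl and 48.3 CPM in AHRmko muscle, and the other satellite cell markers at most 1.6 CPM. Of the 3 tested, 2 were highest in AHRfl 12. In AHRmko 34, 2 were highest and 1 was lowest. Smooth muscle and pericyte markers had the lowest sums of their genotypes (255.9 and 256.6 CPM). The fibro-adipogenic, macrophage, adipocyte and Schwann cell sums were not at the same end in both mice. The TMM factors of these mice, 0.951 and 0.955, were the lowest of the 10 libraries. Over all genes tested, 28.1% had their highest and 26.5% their lowest AHRfl level in mouse 12, and 22% their highest and 25.2% their lowest AHRmko level in mouse 34. The part of tissue composition in the level of Nr3c1 was not tested.

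Target genes of the glucocorticoid receptor were also high in these 2 mice. Of the 24 genes listed as its targets in muscle, 23 were tested, and 15 of the 23 were highest in AHRfl 12 among AHRfl mice, which is 65.2% against 28.1% of all genes. In AHRmko mice, 12 of the 23 were highest in mouse 34, which is 52.2% against 22%. Their mean log2 CPM was 7.04 in AHRfl 12 and between 6.08 and 6.45 in the other AHRfl mice, and it was 6.93 in AHRmko 34 and between 6.15 and 6.40 in the other AHRmko mice. Of the 17 chaperone genes, 12 were highest in AHRfl 12 and 12 in AHRmko 34 within the genotype, 70.6% each. Fkbp5, a chaperone gene that glucocorticoids induce, did not follow this pattern in AHRfl, with 55.9 CPM in mouse 12 against 74.8 CPM in mouse 15, and was highest in mouse 34 of the AHRmko mice with 62 CPM.

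The genes whose pattern over the 10 mice was most like that of Nr3c1, after the mean of each genotype was subtracted, were C2cd2 (Pearson r = 0.99), Rab12 (r = 0.98) and Mapk1ip1 (r = 0.97). C2cd2 was at 183.3 CPM in AHRfl 12 and at most 146.8 CPM in the other AHRfl mice, and at 201.2 CPM in AHRmko 34 and at most 160.6 CPM in the other AHRmko mice. Rab12, a small GTPase of membrane traffic, was at 282.2 CPM in AHRfl 12 and 250.5 CPM in AHRmko 34, and at most 219.9 and 195.4 CPM in the other mice of each genotype. Mapk1ip1 was at 46.3 and 39.9 CPM in the same mice, and at most 34.6 and 30.7 CPM in the others. Since 2 mice stand apart, these r values rest partly on them, and with both left out they were 0.96, 0.86 and 0.80 over 8 mice. The values share library, depth and normalization, and the genes were picked as the closest of 14714.

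**Figure D4:**
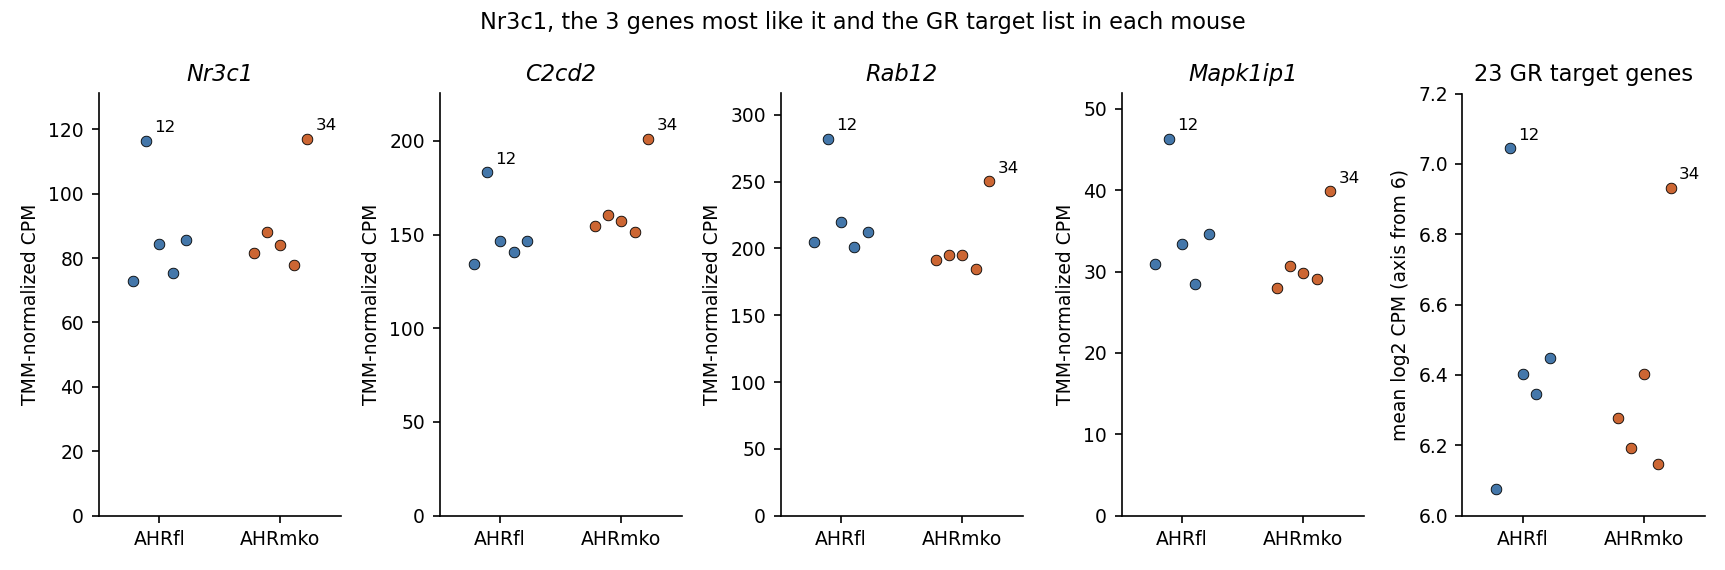
TMM-normalized CPM of Nr3c1 and of the 3 genes with the most similar pattern, and mean log2 CPM of the 23 tested glucocorticoid target genes, in every mouse. AHRfl 12 and AHRmko 34, labelled, are the highest of their genotypes in all 5 panels.

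Nr3c2, the mineralocorticoid receptor, which also binds glucocorticoids, was at 10.7, 8.05, 10.2, 11.1 and 9.46 CPM in AHRfl mice 11, 12, 13, 15 and 33. In AHRmko mice 8, 9, 19, 22 and 34 it was at 11.9, 10.8, 7.91, 10.9 and 9.42 CPM. The genotypes covered nearly the same range, and mouse 12, the highest AHRfl mouse for Nr3c1, was the lowest for Nr3c2. Their log2 difference of 0.04 had a standard error of 0.12 and a 95% interval from -0.22 to 0.30, and it ran from -0.03 to 0.12 when each mouse was left out in turn. It was 0.06 in libraries with Xist counts and 0.08 in those without. The genes most like it were Zfp512b, Ano1 and Agrn, each with r = 0.94 over the 10 mice, and without AHRmko 9 none of them was among the closest 3. Agrn, which encodes agrin, the organizer of the neuromuscular junction, was at 7.9 CPM in AHRfl 12 and 8.96 CPM in AHRmko 19, the lowest mice of their genotypes for both genes.

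Gper1 was low and the most variable of the tested receptors in AHRfl muscle. It had 39, 24, 25, 88 and 64 counts in AHRfl mice 11, 12, 13, 15 and 33, or 1.11, 0.692, 0.705, 2.52 and 1.98 CPM. In AHRmko mice 8, 9, 19, 22 and 34 it had 59, 53, 74, 43 and 37 counts, or 1.55, 1.44, 2.11, 1.13 and 1.11 CPM. The genotypes overlapped, with both the highest and the lowest mouse in AHRfl, and the log2 difference of 0.07 had a standard error of 0.35 and a 95% interval from -0.70 to 0.84. The SD of log2 CPM in AHRfl was 0.81, percentile 97 among 1413 genes of like level, and in AHRmko it was 0.37, percentile 55.4. The difference in Gper1 also moved with the Xist split. Among libraries without Xist counts the 2 AHRfl mice were at 0.692 and 0.705 CPM and the 3 AHRmko mice at 1.11 to 2.11 CPM, with a difference of mean log2 CPM of 1.08. With so few mice, groups that do not overlap with AHRmko higher were found for 10% of all genes in these libraries. Among libraries with Xist counts the groups overlapped with a difference of -0.46. The part of whatever sets the Xist counts was not tested.

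The genes most like Gper1 over the 10 mice were Gm38218 (r = 0.95, between 4 and 33 counts), Pip4k2a (r = 0.94) and Plcb2 (r = 0.94). Plcb2, a phospholipase C activated by G proteins and known from blood cells, had between 2 and 22 counts. Its highest mouse was AHRfl 15, as for Gper1, with 0.629 CPM. Pip4k2a, a lipid kinase of phosphoinositide metabolism, ran from 2.62 CPM in AHRfl 13 to 4.23 CPM in AHRfl 15. For Esr1, the genes with the most similar pattern within genotypes were Gm44769 (r = 0.88), Clk1 (r = 0.87) and Slc35f3 (r = 0.84), and each was highest in AHRmko mouse 9. Clk1, a kinase of splicing factors, was at 76.3 CPM in mouse 9 and between 52.9 and 61.7 CPM in the other AHRmko mice. Without mouse 9 these r values fell to -0.10, 0.20 and 0.63, so that the likeness of Gm44769 and Clk1 rested on that mouse. Slc35f3 was then at place 1795, and 0 of the 3 stayed among the closest 3. Counts were low for Gm44769 (15 to 32) and Slc35f3 (7 to 27). With the genotype difference left in, the closest were Mtap (r = 0.93), Zfp729a (r = 0.91) and Tubd1 (r = 0.91), which were picked over the contrast that chose Esr1. By rank correlation the closest 3 held 0 of the 3 genes named here within genotypes for Esr1, 1 for Nr3c1, 1 for Nr3c2 and 2 for Gper1. Without mouse 9 the closest 3 held all 3 for Nr3c1 and 1 for Gper1. Mtap, an enzyme of methionine salvage, ran from 14 to 15.1 CPM in AHRfl and from 16.4 to 19.2 CPM in AHRmko mice.

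Pairs of the receptors were set side by side over the mice, after the mean of each genotype was subtracted, as a description. The values of r over 10 mice were 0.10 for Esr1 with Nr3c1, -0.06 for Esr1 with Nr3c2 and -0.05 for Esr1 with Gper1. For Nr3c1 with Nr3c2 it was -0.61, and for Nr3c1 with Gper1 -0.49, with AHRfl 12 high for Nr3c1 and lowest for both of the others in AHRfl.

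Levels of different receptors were compared per kilobase of exon. In AHRfl muscle the order was Nr3c1, Nr3c2, Esr1, Gper1 and Esr2, with medians of 10.97, 1.58, 1.23, 0.437 and 0.0253 CPM per kilobase. The ranges of Nr3c2 (1.24 to 1.71) and Esr1 (1.17 to 1.39) overlapped, with Nr3c2 higher in 4 of 5 mice, by 0.28 ± 0.27 on the log2 scale within a mouse (SD, n = 5). The other neighbours did not overlap. In AHRmko muscle the order was Esr1, Nr3c1, Nr3c2, Gper1 and Esr2, with medians of 21.4, 10.9, 1.66, 0.567 and 0.0339 CPM per kilobase, and no neighbours overlapped. The length used decides the place of Esr1 in AHRfl muscle, since its exons cover far more bases than any 1 transcript. Per kilobase of the longest transcript or of the longest coding sequence, Esr1 was above Nr3c2 in 5 of 5 AHRfl mice, by 0.69 and 1.51 on the log2 scale. The order in AHRmko was the same under the 3 lengths. There the place of Esr1 rests on counts that may include reads of the transgene, to which these lengths do not apply.

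**Figure D5:**
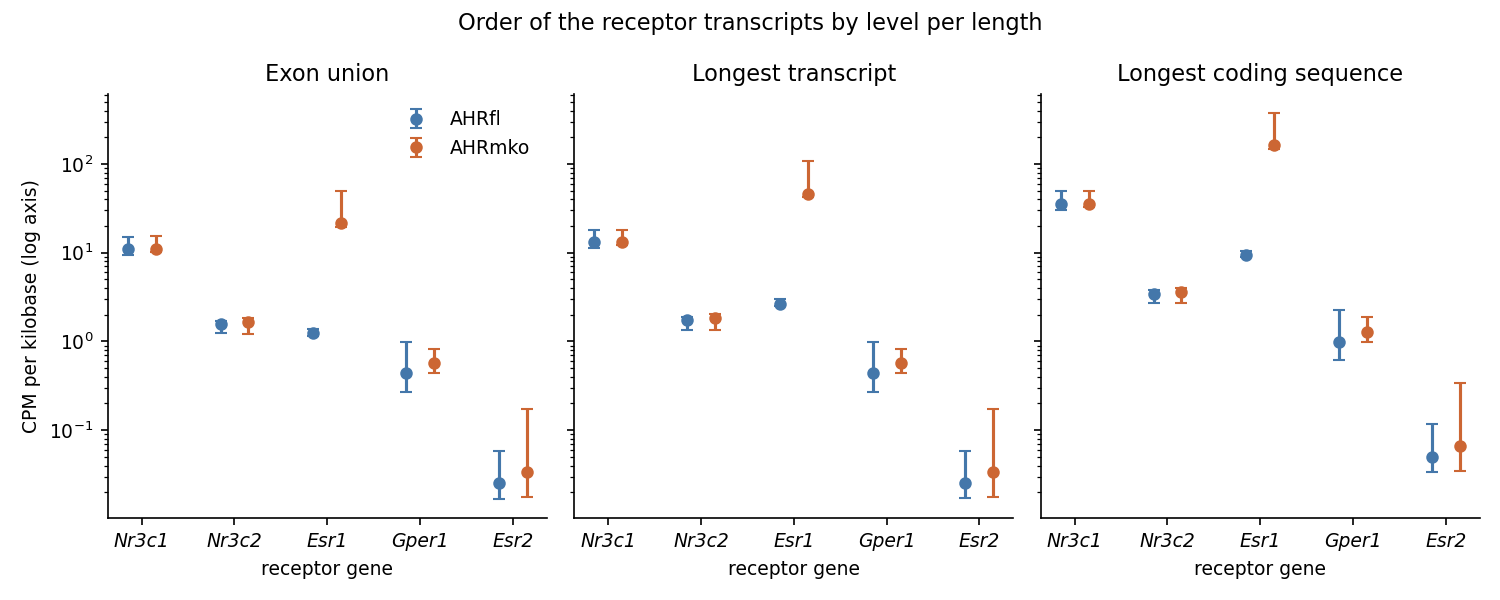
CPM per kilobase of the 5 receptors on a log axis, with the exon union, the longest transcript or the longest coding sequence as length. Circles are medians of 5 mice and bars run from the lowest to the highest mouse. Esr1 is the highest receptor in AHRmko mice under each length, and Nr3c1 is the highest in AHRfl mice. The Esr1 counts of AHRmko mice may include reads of the transgene.

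The pathways around the receptors were described by 8 lists with 130 genes, of which 112 were tested. EdgeR called 0 of the 112 at an adjusted p under 0.05, limma-voom called 0, and DESeq2 called 1 of the 102 to which it gave an adjusted p, Bcl2, against 0.193% of all genes in DESeq2. For 12 genes the unadjusted edgeR p was under 0.05, or 10.7% against 6.61% of all genes, 5 of them higher and 7 lower in AHRmko, against 3.23% and 3.38% of all genes. The median log2 fold change of the 112 genes was 0.0013, and that of all genes tested was 0.0056. The medians of the single lists lay near 0, and all but that of the coregulators changed sign when 1 mouse or another was left out. That of the coregulators ran from 0.02 to 0.09 over the same fits.

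Relatives of the receptors in the same nuclear receptor subfamily include the progesterone receptor and the oestrogen-related receptors. Esrra, an orphan receptor that drives mitochondrial genes, was at 144 CPM on average in AHRfl and 129.3 CPM in AHRmko muscle, a log2 fold change of -0.15 that did not pass (edgeR adjusted p = 0.665), and the groups overlapped. Pgr, the progesterone receptor and a classic Esr1 target, had between 0 and 2 counts and was not tested.

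The list of oestrogen receptor targets, known from tissues such as uterus and breast, had 16 of 20 genes tested, with a median log2 fold change of -0.04. Higher values were found for 6 and lower values for 10, 0 were called by edgeR, and 3 had an unadjusted p under 0.05, all lower in AHRmko, against 3.38% of all genes in that direction. Bcl2, an inhibitor of apoptosis, was at 19.7, 13.5, 14.8, 14.3 and 13.3 CPM in AHRfl mice 11, 12, 13, 15 and 33 and at 10.4, 10.4, 9.25, 7.23 and 6.91 CPM in AHRmko mice 8, 9, 19, 22 and 34. The groups did not overlap, as for 0.714% of all genes in this direction, and the log2 fold change of -0.77 (standard error 0.14) did not pass in edgeR (adjusted p = 0.432) but passed in DESeq2 (adjusted p = 0.0022) and in edgeR with no filter on low counts (adjusted p = 0.0139). Over the 17 other settings and fits without 1 mouse, the adjusted p ran from 0.0022 to 0.994. Nrip1, a corepressor that oestrogen induces, had the largest positive value (log2 fold change 0.61, standard error 0.29, edgeR adjusted p = 0.776), with overlap from 28.7 to 56.5 CPM in AHRfl and from 37.3 to 93.1 CPM in AHRmko mice, and the value was 0.38 without AHRmko 34. Tff1, an oestrogen target of epithelia, had 0 counts in every mouse, and Greb1, another such target, had between 4 and 35 counts and a log2 fold change of -0.47 (standard error 0.51).

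Of the coregulators, the proteins that receptors recruit to chromatin, 20 of 20 were tested and 0 were called. The median log2 fold change was 0.05, and 3 genes had an unadjusted p under 0.05, all higher in AHRmko, against 3.23% of all genes in that direction. Ep300, an acetyltransferase, had the smallest p (log2 fold change 0.29, standard error 0.07, edgeR adjusted p = 0.606), and Kat2b, another acetyltransferase, had the smallest p among the lower genes (log2 fold change -0.11, adjusted p = 0.85 by edgeR, and -0.07 without AHRmko 22). Of the chaperones, 17 of 17 were tested, 0 were called and the median was 0.06. Dnajb1, an HSP40 co-chaperone, was at a log2 fold change of 0.45 (edgeR adjusted p = 0.665), and Bag1, a nucleotide exchange factor of HSP70, at -0.34 (edgeR adjusted p = 0.606).

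Of the glucocorticoid receptor targets, 0 of 23 were called by edgeR, 9 had higher and 14 lower values in AHRmko, and the median log2 fold change was -0.10, which turned to 0.10 without AHRfl 12 and was -0.05 without AHRfl 15 or without AHRmko 9. Cdkn1a, an inhibitor of the cell cycle, was the only one at an unadjusted p under 0.05 (log2 fold change -0.72, standard error 0.27, edgeR adjusted p = 0.683), with 44.9 to 69 CPM in AHRfl and 16 to 46.4 CPM in AHRmko mice. Dusp1, a phosphatase that glucocorticoids induce, had the smallest p among the higher genes, at a log2 fold change of 0.37 (edgeR adjusted p = 0.787), or 0.24 without AHRmko 22. Fbxo32 and Trim63, the ubiquitin ligases of muscle wasting, had log2 fold changes of -0.23 (standard error 0.23) and -0.40 (standard error 0.27). Of the mineralocorticoid receptor targets, 12 of 15 were tested, 0 were called, 0 had an unadjusted p under 0.05 and the median was 0.02. Sgk1, Zbtb16, Per1, Fkbp5 and Tsc22d3 are also in the list of glucocorticoid receptor targets, so these lists are not separate readouts. Zbtb16, a transcription factor gene induced by several steroids, had the highest value (log2 fold change 0.49, standard error 0.25, edgeR adjusted p = 0.788), and Fkbp5 had the smallest p among the lower genes (log2 fold change -0.19, edgeR adjusted p = 0.849), which was -0.06 without AHRfl 15, -0.12 without AHRmko 8 and -0.29 without AHRmko 34. The channel subunits Scnn1a, Scnn1b and Scnn1g, the renal targets of aldosterone, had at most 10 counts in any mouse and were not tested.

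Enzymes that make or inactivate steroids in tissue set how much hormone reaches the receptors. Of 21 listed, 11 were tested, 0 were called and 0 had an unadjusted p under 0.05, with a median log2 fold change of -0.01. H6pd, which supplies the cofactor for local glucocorticoid reactivation, was at 0.15 and Hsd17b12, a ketoacyl reductase, at -0.22 (edgeR adjusted p = 0.811 and 0.791). Hsd11b1, the enzyme that reactivates glucocorticoids, was at 5.1 CPM in AHRfl and 5.4 CPM in AHRmko muscle on average. Cyp19a1, the aromatase that makes oestrogens, and Hsd11b2, which inactivates glucocorticoids in kidney, had at most 2 counts in any mouse. Of the G protein and EGF receptor partners of Gper1, 16 of 16 were tested, 0 were called and the median was 0.0044. Adcy9, an adenylyl cyclase, was at a log2 fold change of 0.42 and Egfr, the EGF receptor, at -0.29 (edgeR adjusted p = 0.716 and 0.737). The value of Adcy9 was 0.24 without AHRmko 8, and that of H6pd was 0.10 without AHRmko 34.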

How the data were processed

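Poly(A) RNA of 10 gastrocnemius muscles was sequenced. The authors trimmed the reads (Trimmomatic 0.36), aligned them to GRCm38 (STAR 2.5.2b) and deposited raw counts of unique exonic reads per gene from featureCounts. The Ensembl release is not given in the sources used here, and strand-specific counting is stated only as a condition. Names, positions and lengths were taken from GENCODE M21, which holds 49056 of 49315 identifiers, and start windows from RefSeq.

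The main test ran in edgeR 4.0.16 (R 4.3.3) with filterByExpr (minimum count 10, minimum total 15), TMM scaling, a robust quasi-likelihood test and Benjamini-Hochberg adjustment over 14714 genes. The study's methods name DESeq2, which was an alternative here. CPM were scaled by TMM, with a prior count of 2 before logs were taken. Each mouse was 1 replicate. No column was left out. The tests were tried on simulated data in which 200 genes were changed.

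The receptors and all lists were chosen with earlier results of these data known. Named genes were the receptors, Ahr, Acta1, the 3 genes most like each tested receptor, the called gene or the smallest p in each direction of a list, and the nearest tested gene on each side of Esr1. Ccdc170, Pgr, Tff1, Greb1, Fbxo32, Trim63, Hsd11b1, Hsd11b2, Cyp19a1 and the Scnn1 genes were named beside these after their values were seen. One gene that the rule names is not reported here.

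Alternatives were DESeq2 1.42.0, limma-voom (limma 3.58.1), DESeq2 size factors, library size alone, no filter, at least 10 counts in every mouse, estimation without robust settings, leaving out each mouse, other gene lengths and Spearman's rho. After seeing the data, leaving out AHRfl 12 and AHRmko 34 together and the split by Xist counts (at least 10) were added.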

Additional observations from a re-analysis of the deposited data

Results flagged for a closer look

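Each receptor, Acta1 and Ahr was checked in both genotypes for a mouse whose gap to the nearest other mouse, divided by the whole range of its 5 mice, exceeded Dixon's critical value of 0.71. Of the 14 groups of 5 mice, 4 had such a mouse, where chance gives about 1 in 20.

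Esr1 in AHRmko mouse 9 stood at 677.6 CPM, with a gap of 0.847 of the range above the other AHRmko mice (267.7 to 330.4 CPM). Esr2 in AHRmko mouse 22 had a gap of 0.862, with 22 counts against 2 to 5 in the others, and Esr2 in AHRfl mouse 13 a gap of 0.747, with 7 counts against 2 or 3. Nr3c1 in AHRmko mouse 34 stood at 117.1 CPM, with a gap of 0.736, and its counterpart AHRfl mouse 12 had a gap of 0.709, just under the critical value.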

How the results depend on the processing

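The difference in Esr1 ran from 4.34 to 4.44 on the log2 scale over the other tests, scalings and filters, and from 4.11 to 4.54 when each mouse was left out. Those of Nr3c1 (-0.07 to 0.17), Nr3c2 (-0.03 to 0.12) and Gper1 (-0.11 to 0.39) changed sign with single mice left out, and Gper1 was at 1.08 within the libraries without Xist counts. By limma-voom the difference in Gper1 was 0.23, against 0.07 in edgeR. The number of genes called, 1 in edgeR, was 21 in DESeq2 and 5 with no filter, and ran from 1 to 6 with a mouse left out, highest without AHRmko 34. Of the oestrogen targets, 1 was called in DESeq2 and 1 with no filter, Bcl2. Syne1 ran from -0.13 to 0.02 over the fits that left out a mouse, positive without AHRmko 19 (0.022) or AHRmko 22 (0.005). Per longest transcript and per coding length, Esr1 stood above Nr3c2 by 0.69 and 1.51 on the log2 scale in AHRfl and by 5.00 and 5.82 in AHRmko muscle, against -0.28 and 4.03 per exon union, and relative to Nr3c1 it stood at -2.30 and -1.92 in AHRfl and at 1.99 and 2.37 in AHRmko, against -3.16 and 1.14 per exon union. The cause of the changed calls was not tested. No analysis paired by litter was possible because the sample labels name no litter. Esr2 had at most 22 counts in any mouse and was not among the genes tested. No setting separates endogenous Esr1 reads from those of the transgene.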
